A study of Mus musculus with 8 samples.

Results

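The circadian clock genes of the mouse retina were followed as 10 genes, Per1, Per2, Per3, Cry1, Cry2, Nr1d1, Nr1d2, Dbp, Ciart and Clock, taken by name from a table of 18058 genes. All 10 had a row, and all 10 passed the minimum mean of 10 normalized counts that left 17636 genes for testing. The table came from total RNA of adult retinae, with 4 WT and 4 quadruple KO libraries named A to D in each genotype. The quadruple KO mice carry knockout alleles of Bcan, Ncan, Tnc and Tnr, which encode the extracellular matrix proteins brevican, neurocan, tenascin-C and tenascin-R, and were bred by crossing the single KO lines. The WT mice were of the inbred strain that is the background of the KO lines, and no treatment is given for either genotype. Animals of both genotypes were kept under a regular light-dark cycle, and per the study's methods retinae were pooled before freezing. The age beyond adult, the hour of dissection and the sex of the mice behind each library are not given in the sources used here. Since retinae were pooled, the p-values measure the spread between these libraries.

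The molecular clock is a loop of transcription and translation that runs in most cell types of the retina, including photoreceptors, inner retinal neurons and Mueller glia. CLOCK and BMAL1 bind as a pair to E-box sequences and activate the Per and Cry genes, whose proteins accumulate and inhibit that pair. The same pair activates Nr1d1 and Nr1d2, whose products repress Bmal1, and output genes such as Dbp, so that the Per, Nr1d and Dbp transcripts and the Bmal1 transcript peak at opposite times of the day. Levels of these genes relative to each other are therefore a common reading of clock phase, and the genotypes and the WT libraries were compared on them here.

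The libraries themselves were not alike. In WT B and WT C the 13 mitochondrially encoded mRNAs took 0.402% and 0.341% of the normalized counts, against 1.28% to 1.64% in the remaining 6 libraries, and the gene with the highest mean, the signal recognition particle RNA gene Metazoa_SRP, took 16.5% and 12.99%, against 4.19% to 6.97%. The estimated depth was 23.8 to 40.1 M reads in WT and 38.7 to 52.3 M reads in the quadruple KO, lowest in WT B and WT C. Rlbp1, a marker of Mueller glia and the pigment epithelium, was present in each library with 10277 to 13983 normalized counts. The summed lens markers ranged from 440 to 3186 normalized counts in WT and from 382 to 2331 in the quadruple KO, and those of fibroblasts and sclera from 244 to 562 and from 177 to 335. In WT B and WT C 4 of 5 lens and 3 of 4 fibroblast markers lay above WT A and WT D, a pattern that 35.1% of all genes tested had. The lens sum was not high in these libraries alone, since KO C had 2331 and WT C 1110 normalized counts. Of the targeted genes, Bcan, Ncan and Tnr were lower in each quadruple KO library than in each WT library, with 11.5 to 22.1, 0 to 0.853 and 2374 to 2580.3 normalized counts against 197 to 327, 569 to 789 and 5578 to 6317. Tnc did not pass the test (log2 fold change -0.071, 95% confidence interval -0.47 to 0.33, limma adjusted p = 0.83, and 0.25 against WT A and WT D alone). For Tnc, the paper reports that a stretch of the WT sequence is lost in the quadruple KO. Its western blots of postnatal retinae did not detect the Tnc protein there. What part the composition of WT B and WT C has in the values below was not tested. In whole retina, fewer cells of a type and less RNA per cell cannot be told apart.

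Per kilobase of the canonical transcript, the order of the levels was stable across the libraries. Dbp stood highest with 2796 ± 216 normalized counts per kilobase (SD, n = 8 libraries), followed by Nr1d1 (2024 ± 339), Nr1d2 (1264 ± 88.4), Cry2 (981 ± 43.6) and Cry1 (625 ± 29.2). Each of these genes exceeded the next in 8 of 8 libraries. Clock (508 ± 103), Per1 (494 ± 48.7) and Per3 (464 ± 32.2) followed and were not separated by their spread, since Clock exceeded Per1 in 5 of 8 libraries and Per1 exceeded Per3 in 5 of 8. Ciart (182 ± 30.5) and Per2 (141 ± 27.3) were lowest, with Ciart above Per2 in 8 of 8 libraries.

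In the promoters of these genes, the known binding sequences of the clock were searched in the RefSeq windows from 250 bases upstream to 50 bases downstream of a start (table of build GRCm38.p6). Of the 10 genes 9 had an entry (all but Per2), with 12 windows, of which 11 were found unchanged in GRCm39. The E-box (CACGTG) is the binding sequence of CLOCK and BMAL1 and occurred in windows of Ciart, Per1 and Cry1, compared with 7.15% of 32851 mouse windows. The E'-box (CACGTT), a variant of it, occurred in Cry1, Cry2 and Nr1d1, compared with 4.68%. The D-box (TTATGTAA or TTACGTAA), bound by DBP and its relatives TEF and HLF, occurred in Per3 alone among the 9 genes, compared with 1.06% of windows. The core of the ROR element (TAGGTCA or TGGGTCA, 6.45% of windows) and the CRE (TGACGTCA, 1.79%) were not in these windows. Both strands were searched, no motif overlapped another, and a match is a description of the letters only. The windows of Ciart, Per1, Nr1d1 and Per3 are shown because they hold a repeated E-box, a single E-box, an E'-box and a repeated D-box. Capitals mark the motifs as read on the gene's strand, so that an E'-box on the opposite strand reads AACGTG.
Ciart, chr3:95789491-95789790, minus strand: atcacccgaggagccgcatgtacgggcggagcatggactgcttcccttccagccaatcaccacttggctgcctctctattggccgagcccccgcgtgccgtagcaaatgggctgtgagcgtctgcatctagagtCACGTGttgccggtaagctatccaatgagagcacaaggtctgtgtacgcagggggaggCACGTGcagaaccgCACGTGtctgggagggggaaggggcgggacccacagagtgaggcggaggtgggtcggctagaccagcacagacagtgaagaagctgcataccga
Per1, chr11:68989525-68989824, plus strand: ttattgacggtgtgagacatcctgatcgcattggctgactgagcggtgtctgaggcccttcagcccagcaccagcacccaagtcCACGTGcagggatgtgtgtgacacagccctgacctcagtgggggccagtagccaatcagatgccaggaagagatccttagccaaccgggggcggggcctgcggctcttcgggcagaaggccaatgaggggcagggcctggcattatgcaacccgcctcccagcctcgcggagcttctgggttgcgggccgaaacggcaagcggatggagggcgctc
Nr1d1, chr11:98666154-98666453, minus strand: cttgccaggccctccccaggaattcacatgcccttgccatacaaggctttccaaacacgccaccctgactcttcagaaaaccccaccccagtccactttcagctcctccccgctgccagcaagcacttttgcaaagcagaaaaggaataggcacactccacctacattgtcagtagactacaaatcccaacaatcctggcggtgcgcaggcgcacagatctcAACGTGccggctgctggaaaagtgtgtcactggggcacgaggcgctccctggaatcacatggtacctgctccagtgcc
Per3, chr4:151129073-151129372, minus strand: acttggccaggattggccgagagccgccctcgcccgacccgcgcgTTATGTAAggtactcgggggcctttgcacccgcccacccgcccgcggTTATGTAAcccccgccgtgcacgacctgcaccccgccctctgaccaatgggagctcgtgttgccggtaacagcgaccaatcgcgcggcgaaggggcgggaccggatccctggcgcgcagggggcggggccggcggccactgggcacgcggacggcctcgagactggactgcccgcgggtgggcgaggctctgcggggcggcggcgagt
The coordinates are those of GRCm39, from an exact match of the RefSeq letters.

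Clock (ENSMUSG00000029238.12, chr5:76342860-76452846, minus strand) encodes the DNA-binding partner of BMAL1 and was the member that set WT B and WT C apart most. It had 5593, 3549, 3217 and 5582 normalized counts in WT A to D, and 5404, 5564, 5689 and 5646 in the quadruple KO libraries A to D. WT A, WT D and the 4 quadruple KO libraries thus lay within a narrow band with a coefficient of variation of 1.75%, the smallest of the 10 genes, and WT B and WT C lay below it at 60.6% of the mean of WT A and WT D. The log2 fold change (quadruple KO over WT) was 0.36 (standard error 0.18, 95% confidence interval -0.043 to 0.76, limma adjusted p = 0.31; exact permutation p = 0.229). Against WT A and WT D alone it was -0.0032 (95% confidence interval -0.099 to 0.093).

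The exons of Clock share 2047 bases with Tmem165, a gene on the opposite strand. Tmem165 had 719, 2659, 1725 and 720.3 normalized counts in WT A to D, compared with 594 to 720.1 in the quadruple KO libraries. It was therefore high in WT B and WT C, where Clock was low. The library kit was directional, but the strand setting of the counting is not stated in the sources used here, so reads from the shared bases cannot be told apart.

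The partner genes of Clock were examined with it. Bmal1, listed under its older symbol Arntl, had 2191, 1446, 1481 and 2279.5 normalized counts in WT A to D and 2441, 2275, 2657 and 2467 in the quadruple KO libraries A to D. It repeated the low WT B and WT C of Clock, and the genotypes overlapped. Its log2 fold change was 0.44 (95% confidence interval 0.087 to 0.80, limma adjusted p = 0.30), and 0.14 against WT A and WT D alone. Npas2, which can stand in for Clock, was low and scattered at 79.1 to 150 normalized counts over the 8 libraries (log2 fold change -0.024, 95% confidence interval -0.50 to 0.45).

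The Per genes encode the period proteins, which inhibit CLOCK and BMAL1. Per1 (ENSMUSG00000020893.18, chr11:68986035-69002300, plus strand), a gene that responds quickly to light in the master clock of the brain, had 2926, 3652, 3212 and 3276 normalized counts in WT A to D and 2855, 3809, 3277 and 3417 in the quadruple KO libraries. Library A was the lowest and library B the highest in both genotypes, and the genotypes overlapped over nearly their whole range. The log2 fold change was 0.029 (standard error 0.10, 95% confidence interval -0.20 to 0.26, limma adjusted p = 0.88; exact permutation p = 0.743). Per2 (ENSMUSG00000055866.10, chr1:91343700-91387069, minus strand) had 837, 621, 574 and 887 normalized counts in WT A to D and 752, 985, 1002 and 905 in the quadruple KO libraries. WT B and WT C were the lowest of all 8, at 69.3% of WT A and WT D, while KO B and KO C were the highest. The log2 fold change was 0.34 (standard error 0.16, 95% confidence interval -0.024 to 0.70, limma adjusted p = 0.31; exact permutation p = 0.114) and 0.071 against WT A and WT D alone (95% confidence interval -0.18 to 0.33).

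Per3 (ENSMUSG00000028957.13, chr4:151081373-151129140, minus strand), whose promoter holds the pair of D-boxes shown above, had 2801, 3052, 2461 and 3049 normalized counts in WT A to D and 2686, 2817, 2718 and 2755 in the quadruple KO libraries. Here WT B was the highest and WT C the lowest library, so that the pair did not move together, and the quadruple KO libraries lay between them. The log2 fold change was -0.045 (standard error 0.081, 95% confidence interval -0.23 to 0.14, limma adjusted p = 0.76).

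The Cry genes encode the cryptochromes, the partners of the period proteins in repression, and were the steadiest members across all 8 libraries. Cry1 (ENSMUSG00000020038.11, chr10:84967560-85021252, minus strand) had 2024, 1821, 1849 and 1889 normalized counts in WT A to D and 1800.15, 1916, 2045 and 1891 in the quadruple KO libraries. Cry2 (ENSMUSG00000068742.12, chr2:92233894-92264474, minus strand) had 4095, 4295, 4124 and 3817 in WT A to D and 3868, 4188, 4218 and 3886 in the quadruple KO libraries. The highest and the lowest library of Cry1 were both quadruple KO libraries and those of Cry2 both WT libraries, with coefficients of variation between 4.67% and 5.29% within each genotype. The log2 fold changes were 0.013 for Cry1 (95% confidence interval -0.14 to 0.17) and -0.015 for Cry2 (-0.16 to 0.13), with limma adjusted p = 0.92 and 0.90. In WT B and WT C, Cry1 was at 93.8% and Cry2 at 106% of the mean of WT A and WT D.

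Nr1d1 and Nr1d2 encode the nuclear receptors REV-ERB alpha and REV-ERB beta, which repress Bmal1 and other genes with ROR elements. Nr1d1 (ENSMUSG00000020889.12, chr11:98658752-98666188, minus strand) had 5651, 4453, 3804 and 6045 normalized counts in WT A to D and 5897, 6370.1, 6357 and 5487 in the quadruple KO libraries. WT B and WT C were the lowest, at 70.6% of WT A and WT D, and KO B and KO C the highest, as for Per2. The log2 fold change was 0.29 (standard error 0.14, 95% confidence interval -0.023 to 0.61, limma adjusted p = 0.31; exact permutation p = 0.143), and 0.042 against WT A and WT D alone (95% confidence interval -0.11 to 0.20). Nr1d2 (ENSMUSG00000021775.12, chr14:4230545-4266624, plus strand) had 6773, 8189, 7641 and 7051 normalized counts in WT A to D and 6855, 6748, 7089 and 6964 in the quadruple KO libraries. In contrast to Nr1d1, WT B and WT C were its highest libraries, at 115% of WT A and WT D, and the other 6 libraries had a coefficient of variation of 2.07%. Its log2 fold change was -0.097 (standard error 0.073, 95% confidence interval -0.26 to 0.068, limma adjusted p = 0.44), and 0.00044 against WT A and WT D alone.

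The exons of Nr1d1 share 1694 bases with Thra, the thyroid hormone receptor alpha gene on the opposite strand. Thra had 6758, 9344, 8695 and 6235 normalized counts in WT A to D, and 6050 to 6609 in the quadruple KO libraries. As with Clock and Tmem165, the overlapping gene was high in the libraries where the clock gene was low. Of all genes tested, 35.1% lay higher in WT B and WT C without overlap. Dbp and its overlapping gene Sphk2, given below, were both higher there. C920021L13Rik, which shares 250 exonic bases with Ciart on the opposite strand, had 25.7, 22.7, 52.4 and 21.6 normalized counts in WT A to D.

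Dbp stands at the output side of the loop, and Ciart is one of its repressors. Dbp (ENSMUSG00000059824.13, chr7:45354512-45359627, plus strand), an activator that acts through D-boxes and is among the strongest rhythmic transcripts of many tissues, had 5054, 5508, 5739 and 4576 normalized counts in WT A to D and 5011, 5314, 5220 and 4660.4 in the quadruple KO libraries. In both genotypes the libraries B and C were higher than A and D, and the genotypes overlapped. The log2 fold change was -0.044 (standard error 0.086, 95% confidence interval -0.24 to 0.15, limma adjusted p = 0.78). Its exons share 539 bases with Sphk2 on the opposite strand, a gene at 892 and 835 normalized counts in WT B and WT C and at 471 to 546 in the remaining 6 libraries. Ciart (ENSMUSG00000038550.11, chr3:95785815-95789991, minus strand), a repressor of CLOCK and BMAL1 whose promoter holds the 3 E-boxes shown above, had 363, 332, 276 and 346 normalized counts in WT A to D and 345, 443, 455 and 321 in the quadruple KO libraries. KO B and KO C were the highest libraries and WT C the lowest, and KO A and KO D lay inside the WT range. The log2 fold change was 0.24 (standard error 0.14, 95% confidence interval -0.086 to 0.56, limma adjusted p = 0.36; exact permutation p = 0.257). Ciart had the fewest reads behind it, an estimated 185 in its lowest library, WT C, which by counting alone gives an error of 7.34%. Its coefficient of variation was 11.5% in WT and 17.3% in the quadruple KO, whose libraries had more reads of it.

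**Figure D1:**
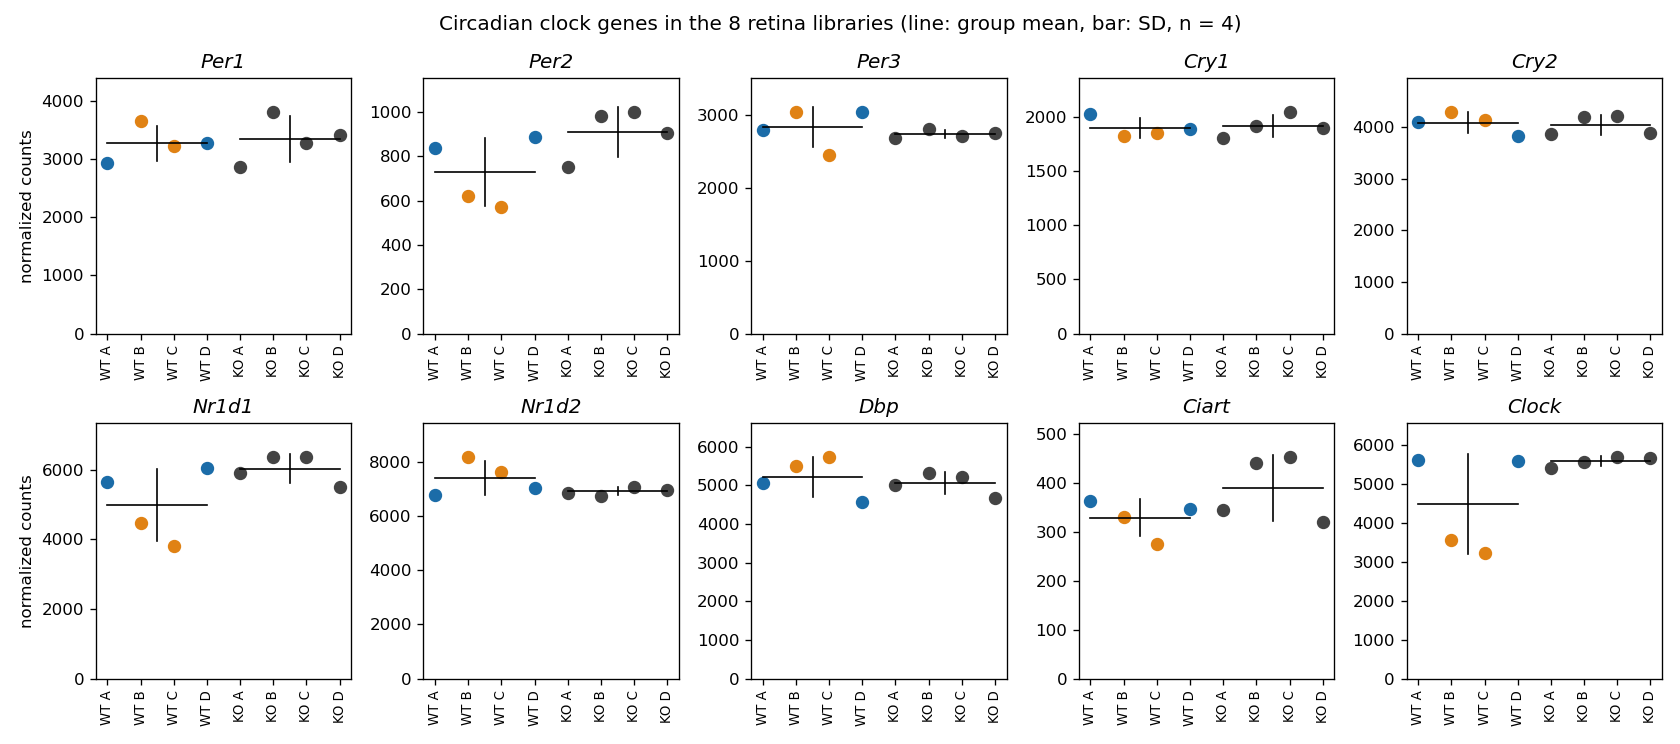
Normalized counts (y axis, from 0, one scale per gene) of the 10 clock genes in each of the 8 libraries (x axis), with WT A and WT D in blue, WT B and WT C in orange and the quadruple KO in grey; horizontal lines give the group mean and vertical bars the SD (n = 4). Clock, Per2 and Nr1d1 show the orange points below all others, at 60.6%, 69.3% and 70.6% of the mean of WT A and WT D, whereas for Nr1d2 they lie above all others.

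Between the genotypes, 0 of the 10 clock genes passed an adjusted p of 0.05 in limma, compared with 77 of 17636 genes (0.437%). An unadjusted p under 0.05 was found for 0 of the 10, compared with 2922 of all genes tested (16.6%), and the adjusted p-values ran from 0.31 to 0.92. Against WT A and WT D alone, 0 of the 10 passed, compared with 93 genes (0.527%), again with 0 at an unadjusted p under 0.05, compared with 2049 of all genes tested (11.6%). In none of the 10 did the quadruple KO libraries all lie above or all below WT, a pattern that 9.74% of the genes tested had. With this number of libraries the two-sided exact permutation test cannot go below p = 0.0286, and the lowest p among the 10 genes was 0.114. The median log2 fold change of the 10 genes was 0.021, compared with -0.00018 over all genes tested. The 4 larger differences, those of Clock, Per2, Nr1d1 and Ciart, lay between 0.24 and 0.36 with all 4 WT libraries, and between -0.0032 and 0.12 against WT A and WT D. The intervals against WT A and WT D are the narrowest for Clock and Nr1d2, each within 0.10 of 0 on the log2 scale, and the widest for Ciart (-0.21 to 0.46).

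**Figure D2:**
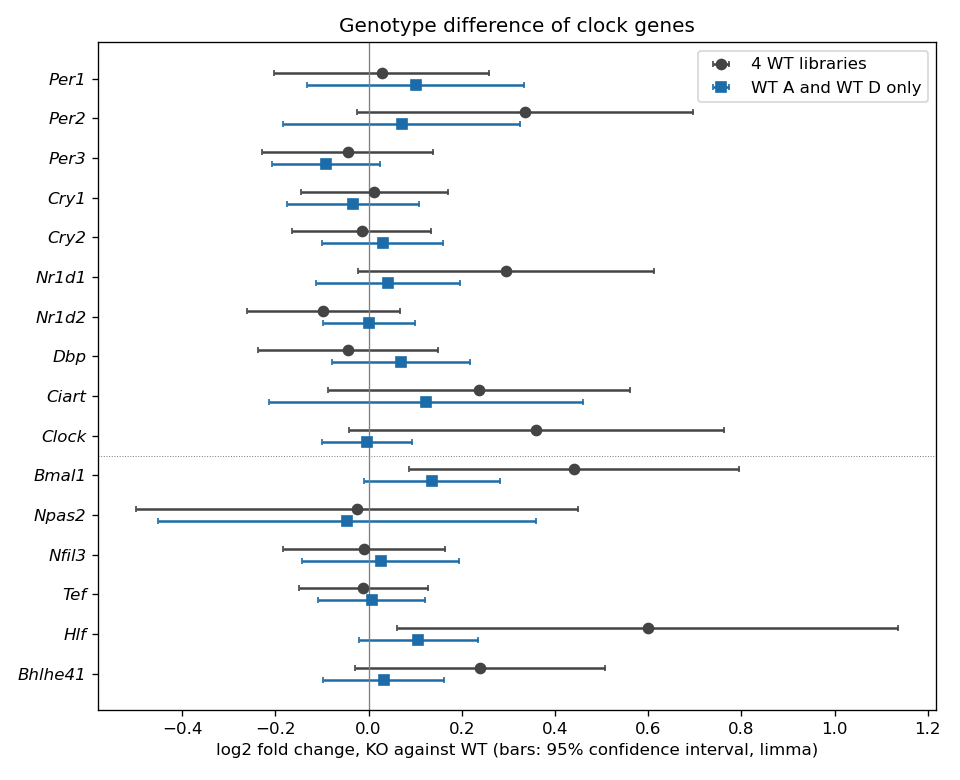
Log2 fold change (quadruple KO over WT, x axis) with its 95% confidence interval from limma for the 10 clock genes, above the dotted line, and 6 further genes of the clock loop, below it. Grey circles use the 4 WT libraries and blue squares WT A and WT D only; the values of Clock, Per2 and Nr1d1 are 0.36, 0.34 and 0.29 with the former and -0.0032, 0.071 and 0.042 with the latter.

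Spread within a genotype was smaller in the quadruple KO than in WT for the typical clock gene. The median coefficient of variation of the 10 genes was 5.52% in the quadruple KO and 9.84% in WT, compared with 7.26% and 18.3% over all genes tested. In the quadruple KO, KO B and KO C both lay above KO A and KO D for 6 of the 10 genes, compared with 17.7% of all genes. These were Per2, Cry1, Cry2, Nr1d1, Dbp and Ciart. Both lay below for 0 of the 10, compared with 2633 of the 17636 genes tested. This split of the quadruple KO libraries was chosen after the values were seen. The sizes were modest, the largest being that of Ciart, with 443 and 455 against 345 and 321 normalized counts.

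To read the clock phase of each library, genes with peaks at opposite times were set against each other. A clock index was formed as the mean log2 value of Per1, Per2, Per3, Nr1d1, Nr1d2, Dbp, Tef, Hlf, Ciart and Bhlhe41 minus that of Bmal1, Npas2, Clock, Nfil3 and Cry1, each gene centred on its mean over the 8 libraries. The index orders libraries along this opposition and gives no hour, since no retina series of known times was part of the data. It was -0.10, 0.19, -0.12 and 0.041 in WT A to D and -0.054, 0.11, -0.034 and -0.023 in the quadruple KO libraries A to D. The 4 quadruple KO libraries lay inside the WT range, and the difference between the genotype means was -0.0021 (SD 0.15 in WT and 0.073 in the quadruple KO). WT B had the highest and WT C the lowest index of all 8 libraries, with WT A and WT D between them. In this form, with Npas2 included, the index did not place WT B and WT C together. Npas2, a low and scattered gene on the subtracted side, had its lowest value in WT B (79.1) and its highest in WT C (150). Whether this order of the libraries holds without Npas2 was not tested. The mean of WT B and WT C exceeded that of WT A and WT D by 0.065, less than the distance between WT B and WT C. This excess was 0.30 with the 10 clock genes alone in the index, a form without Npas2, and 0.44 with each gene scaled to unit SD. The order of single libraries in these forms is not given here. The placing of WT B and WT C described above is for the index as first formed. As a score over chosen genes, the index was not tested.

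As a mean over its genes, each arm of the loop was lower in WT B and WT C. The arm led by the Per, Nr1d and Dbp genes was at -0.11 and -0.26 in WT B and WT C and at 0.0073 and 0.054 in WT A and WT D, a difference of -0.22 between the means. The arm of Bmal1, Npas2, Clock, Nfil3 and Cry1 was at -0.30 and -0.13 in WT B and WT C and at 0.11 and 0.014 in WT A and WT D, a difference of -0.28. The genes within an arm did not move together. Of the 10 genes of the first arm 6 were lower in WT B and WT C and 4 were higher (Per1, Nr1d2, Dbp and Tef), and of the 5 genes of the second 4 were lower and Nfil3 was higher (0.073). The largest differences in the first arm were those of Hlf (-0.98), Per2 (-0.53), Nr1d1 (-0.51) and Bhlhe41 (-0.41). The mean of the second arm was carried mostly by Clock (-0.73) and Bmal1 (-0.61). In the quadruple KO the arms lay between -0.015 and 0.16 and between 0.039 and 0.18, and exceeded the means of WT A and WT D by 0.046 and 0.016.

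**Figure D3:**
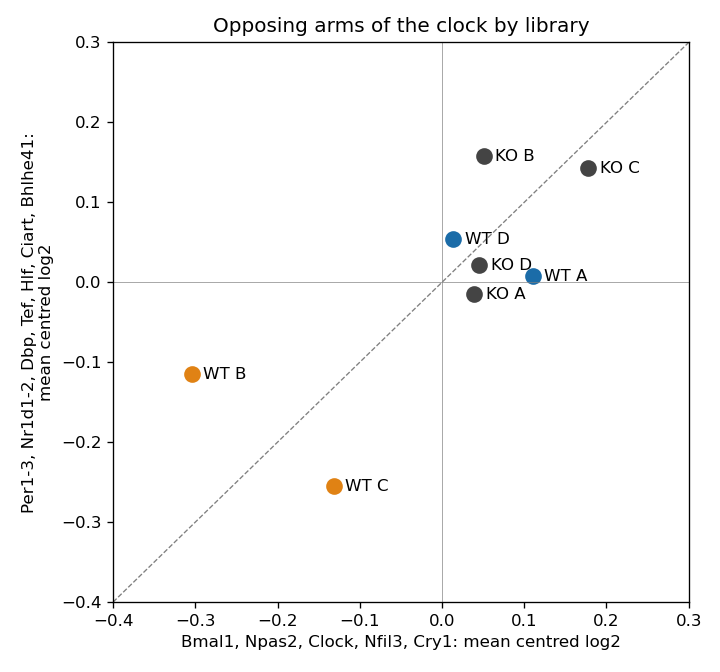
Each point is 1 library, with the mean centred log2 value of Bmal1, Npas2, Clock, Nfil3 and Cry1 on the x axis and that of the 10 genes with the opposite peak on the y axis; the dashed line marks equal values, an index of 0. WT B and WT C (orange) are low on both axes, on either side of the line, with indices of 0.19 and -0.12, whereas KO B and KO C are at or above 0.051 on both axes.

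Gene by gene, WT B and WT C differed from WT A and WT D, but in a share of the clock genes close to that of all genes. Both lay below WT A and WT D for 5 of the 10 genes (Clock, Per2, Nr1d1, Ciart and Cry1), compared with 35.8% of the genes tested, and both above for 3 (Nr1d2, Dbp and Cry2), compared with 35.1%. For Per1 and Per3 they overlapped. The median log2 difference of the 10 genes was -0.092, compared with -0.010 over all genes. The split of the WT libraries was made from the data and was not tested.

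Across 17554 genes with a GC value, the log2 difference of WT B and WT C from WT A and WT D rose with the GC content of the transcript (Spearman correlation 0.42, Pearson r 0.39; a description across genes, which share the same libraries). The median difference was -0.39 in the lowest of 5 equal groups of genes by GC content and 0.27 in the highest. Dbp (61.6% GC) belonged to the latter with 0.23, close to the median of its group. Clock (41.5% GC) belonged to the former with -0.73, which is 0.34 below the median, and Ciart (52.5% GC) was 0.33 below that of its own group. Nr1d1 (56.8% GC) was at -0.51, which is 0.77 below the median of its group, and Per2 (54.4% GC) at -0.53, or 0.63 below. Nr1d2 (42.1% GC) was at 0.19, which is 0.58 above the median of genes with like GC content. The difference between Nr1d1 and Nr1d2, paralogs with like roles, was thus opposite to the trend with GC content.

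**Figure D4:**
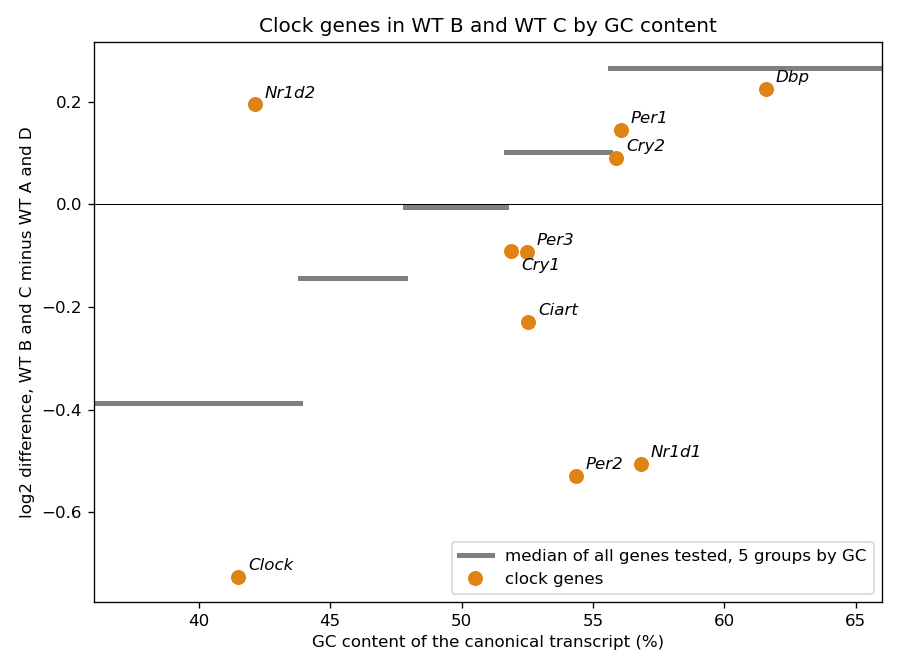
Log2 difference of WT B and WT C from WT A and WT D (y axis) against the GC content of the canonical transcript in percent (x axis) for the 10 clock genes (orange). Grey bars give the median of all genes tested in each of 5 groups by GC content, from -0.39 to 0.27; Nr1d1 and Per2 lie 0.77 and 0.63 below their bar and Nr1d2 lies 0.58 above it.

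The 20 further genes of the clock loop include activators, repressors, kinases and ubiquitin ligases. Of these, 0 rose and 0 fell between the genotypes, and 3 had an unadjusted p under 0.05 (Bmal1, Rora and Hlf). That share is near the 16.6% of all genes tested. The largest difference was that of Hlf, a relative of Dbp that binds D-boxes, with 7863, 4373, 3861 and 8403 normalized counts in WT A to D and 8278, 8957, 9243 and 8576 in the quadruple KO libraries. WT B and WT C were at 50.6% of WT A and WT D. Its log2 fold change was 0.60 (95% confidence interval 0.062 to 1.14, limma adjusted p = 0.30), and 0.11 against WT A and WT D alone. Rora, an activator of Bmal1, followed the same form with 13673, 8756, 8672 and 12948 in WT A to D and 13626 to 14033 in the quadruple KO (log2 fold change 0.37, limma adjusted p = 0.30, and 0.063 against WT A and WT D alone). In WT, the index genes Tef, Nfil3 and Bhlhe41 varied less than Hlf and Rora. Tef, the other relative of Dbp, was at 7374 to 8129 normalized counts over the 8 libraries and Nfil3, a repressor at D-boxes, at 448 to 493. Bhlhe41, a repressor of E-box genes, was at 3015 to 4519, lowest in WT B and WT C. Against WT A and WT D alone 0 of the 20 passed, and 1 had an unadjusted p under 0.05, compared with 11.6% of all genes tested. This was Rorb, with a log2 fold change of -0.27 (95% confidence interval -0.40 to -0.14, limma adjusted p = 0.15) and -0.14 with the 4 WT libraries. Cipc, an inhibitor of CLOCK, was lower in each quadruple KO library (2487 to 2848) than in each WT library (2854 to 3093). No overlap in either direction was found for 9.74% of all genes tested. The log2 fold change of Cipc, -0.10, did not pass the test (limma adjusted p = 0.39). It was named after its values were seen.

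Of 14 genes that follow the clock, light or glucocorticoids in the retina and other tissues, 0 rose and 0 fell, and 4 had an unadjusted p under 0.05 (Klf9, Adcyap1, Cdkn1a and Nampt), where all genes tested had 16.6%. Against WT A and WT D alone 0 passed and 3 had an unadjusted p under 0.05, where all genes tested had 11.6%. There the log2 fold change of Drd4 was 0.27 (95% confidence interval 0.15 to 0.39, limma adjusted p = 0.11), compared with 0.083 with the 4 WT libraries. Fkbp5, a classic glucocorticoid-induced gene, had 738, 2474, 2309.9 and 789 normalized counts in WT A to D and 631 to 873 in the quadruple KO libraries. WT B and WT C were at 313% of WT A and WT D, and the log2 fold change of -0.82 (limma adjusted p = 0.31) became 0.0045 against WT A and WT D alone. By the same measure, Tsc22d3 of this list stood at 116% and Klf9 at 85.6%. Among the 14 genes, 7 were higher in that pair of libraries without overlap and 3 were lower. Of all genes tested, 35.1% were higher and 35.8% lower in this way. A response to glucocorticoids was not tested. Adcyap1, which encodes the peptide PACAP of the ganglion cells that project to the master clock, had 82.0, 48.9, 68.4 and 80.5 normalized counts in WT A to D and 91.3, 87.1, 111 and 177 in the quadruple KO libraries. Each quadruple KO library exceeded each WT library (exact permutation p = 0.0286), but the log2 fold change of 0.70 did not pass the test across all genes (95% confidence interval 0.12 to 1.28, limma adjusted p = 0.30). Against WT A and WT D alone it was 0.46 (95% confidence interval -0.15 to 1.06). The lowest library of Adcyap1 held an estimated 27.6 reads. Klf9 also had no overlap, with 4687 to 5123 in the quadruple KO and 3727 to 4528 in WT (exact permutation p = 0.0286). Its log2 fold change was 0.25 (limma adjusted p = 0.30), and 0.14 against WT A and WT D alone (95% confidence interval 0.022 to 0.26). Of all genes tested, 9.74% had the quadruple KO libraries all above or all below WT. Cdkn1a, an inhibitor of the cell cycle, had a log2 fold change of -0.57 (95% confidence interval -1.13 to -0.017, limma adjusted p = 0.30), and of -0.35 against WT A and WT D alone (95% confidence interval -0.82 to 0.13).

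The genes that followed Dbp and Per1 most closely over the 8 libraries were sought among the 12630 genes that averaged 100 normalized counts or more, as a description only. For Dbp these were Nab2 (Pearson r = 0.98), Prr12 (0.97), Nxph3 (0.96), Polr2f (0.96) and Tmem41a (0.95). For Per1 they were Acsf3 (0.94), Abcc10 (0.92), Abcb8 (0.86), Jakmip2 (0.86) and Dennd6b (0.86). Neither list held another of the 10 clock genes.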

How the data were processed

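Total RNA of retinae (RNeasy, 450 ng input, directional library kit) was sequenced for 4 WT and 4 quadruple KO samples. The authors used Trim Galore 0.6.7 for trimming, aligned them with STAR 2.7.9a to GRCm39, estimated gene counts with Salmon 1.5.2, and deposited normalized counts, which are estimated counts divided by normalization factors of DESeq2 1.32.0 in R 4.1.1. The table also holds the fold changes and p-values of the authors, which were not used. The strand setting of the counting and any batch are not given in the sources used here. The columns were matched to the samples by name.

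The value of 1 read per library was estimated from the spacing of low values and ran from 0.712 (KO C) to 1.77 (WT B) normalized counts. Between 44.8% and 72.2% of the low values lay within 0.1 of a whole step, so reads could not be recovered as whole numbers and a count model was not applied. Log2(normalized count + 1) was compared with limma 3.58.1 in R 4.3.3 (linear model without covariates, moderated with a mean trend) for the 17636 genes averaging 10 or more, with Benjamini-Hochberg adjustment over these genes and a threshold of 0.05. On this scale the change of low genes is understated. Two-sided exact permutation tests used normalized counts. Of these steps, the limma fit alone was tested on simulated data. All simulated libraries had the same spread, so none stood apart as WT B and WT C do. Python 3.11.15, numpy 2.4.6, pandas 2.3.3, scipy 1.17.1 and matplotlib 3.10.9 were used otherwise. GC content and lengths refer to the canonical transcript of the GENCODE annotation of GRCm39.

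The members, the gene lists and the tests were chosen with earlier results of these data known. The genes named were the 10 members, the other genes of the index, the called genes of the lists of loop and output genes or else the 3 with the largest absolute fold change in each, the 5 most like Dbp and Per1, the targeted genes, and overlapping genes on the opposite strand. The other names given with a count were chosen after their values were seen. The alternatives were another normalization (quantile, median ratios), another filter (none, a minimum mean of 100), a pseudocount of 10 or 0.1, no mean trend, weights per library, a replicate block by letter, WT limited to WT A and WT D, an adjusted p under 0.1, other index genes or weights, and each library left out in turn. Some marker genes of the retina are not reported here.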

Additional observations from a re-analysis of the deposited data

Results flagged for a closer look

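Among the 42 groups of 4 libraries examined, 1 held a library far from the others, and chance alone gives about 1 in 20. In WT, Cdkn1a had 105 normalized counts in WT C and 53.3 to 58.0 in the remaining WT libraries. The quadruple KO libraries had 38.0 to 56.3.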

How the results depend on the processing

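Under the 18 alternative fits, 0 of the 10 clock genes and 0 of the 20 further loop genes were called, and 0 of the 10 at an adjusted p under 0.1 in the original fit. The lowest adjusted p of a clock gene in any alternative was 0.087. The letters A to D were not treated as pairing the samples, since the deviations of same-lettered libraries correlated at -0.0097, -0.11, 0.098 and 0.050, and with the letter as a replicate block 0 of these genes were called as well.

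Of 180 fold changes under alternatives, 17 took the opposite sign, in 6 genes and all of at most 0.069 in size. With WT limited to WT A and WT D these were Clock (-0.0032), Cry1 (-0.033), Cry2 (0.030), Nr1d2 (0.00044) and Dbp (0.069). With array weights they were Cry1 (-0.048), Cry2 (0.0030) and Dbp (0.024), and with quantile normalization Cry2 (0.0047). With each library left out in turn, Per1 ran from -0.037 to 0.10, Cry1 from -0.020 to 0.045, Cry2 from -0.047 to 0.0097 and Dbp from -0.11 to 0.0038. The other genes kept their sign there, with Clock from 0.22 to 0.48, Per2 from 0.23 to 0.44 and Nr1d1 from 0.17 to 0.40.

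The difference of the clock index between WT B and C and WT A and D was 0.30 from the 10 members alone and 0.44 with each gene scaled to unit SD, compared with 0.065, while it was -0.021 without Clock and Cry1. The cause was not tested. The difference between the genotypes stayed between -0.086 and 0.061. Depth limits Ciart and Per2 most.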
